A study of Mus musculus with 28 samples.

Results

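The enzymes of fatty acid oxidation were followed gene by gene in liver and kidney tissue of mice given nicotinamide mononucleotide (NMN), a precursor of NAD+, by gavage for 7 days. The list held 38 genes of known function in the pathway, drawn up with earlier results of these data known, of 54446 genes in the count tables. Of the list, 23 were assigned to the mitochondrion and 15 to the peroxisome. Each gene was given a single organelle, which leaves out any place it may have in another. All mice were male C57BL/6 (C57BL6J in the study's methods) of 8 weeks, and no genetic change is named for any group. In the 1340 mg/kg/d schedule, with 1 gavage a day, 4 mice received NMN and 4 received water, and in the 2680 mg/kg/d schedule, with 2 gavages a day, 3 mice received NMN and 3 received water. Liver and kidney were each sequenced as polyA-selected RNA, which gave 28 libraries of 12688324 to 33872983 reads counted on genes. The labels do not say which liver and which kidney came from the same mouse.

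Fatty acids are first joined to coenzyme A. Long-chain acyl groups then enter the mitochondrion as carnitine esters and are shortened there in repeated cycles of dehydrogenation, hydration, a second dehydrogenation and thiolysis, each cycle passing electrons to the respiratory chain and to NAD+. Peroxisomes shorten very long, branched and dicarboxylic chains with their own enzymes and hand the products on as carnitine esters. Many of these genes are textbook targets of the nuclear receptor PPARα in the liver, and the proximal tubule of the kidney also burns fatty acids as its main fuel.

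The organ labels held in every library. The 10 liver markers summed to between 110685 and 168870 CPM (counts scaled to the library total) in the livers, led by Alb, and to between 1643 and 2838 in the kidneys. The 12 proximal tubule markers summed to between 24104 and 41441 CPM in the kidneys, led by Kap, an androgen-regulated tubule gene, and to at most 172 CPM in the livers. All 12 were above 0 in every kidney. The RNA came from whole pieces of tissue, so fewer cells of a type and less RNA per cell cannot be told apart.

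A pair of liver libraries stood apart from their groups. In the liver of NMN mouse 4 at 1340 mg/kg/d, 29.3% of the tallied reads were not assigned to a gene, against 18.6% to 21.9% in the water livers of that schedule. The lowest liver of its own group had 19.6%. Such reads lay on no gene, on several genes or in several places. Reads on no gene alone were 12.8% in this liver, against 5.02% to 7.43% in the same water livers. It was also the smallest library of all. In the liver of NMN mouse 1 at 2680 mg/kg/d, the list as a whole sat low. Its median log2 difference from the mean of the water mice was -0.20, against 0.24 and 0.23 in the other NMN mice. This mouse was picked by the list's own values, so larger effects without it follow in part from that choice. Fits without it describe how the values depend on 1 mouse and do not stand as support for a call. The members with values in every mouse are therefore given with and without these mice in the liver. The kidneys of the schedules also differed in mitochondrially encoded counts, which took 9.71% ± 0.703 of the reads in water mice at 1340 mg/kg/d (n = 4) and 20.6% ± 0.907 at 2680 mg/kg/d (n = 3), with 9.48% and 20.4% in the NMN mice. NMN was therefore compared with water within a schedule, and schedules were compared only through the difference between their NMN effects. Depth went with treatment in the kidney: NMN libraries held 13174264 to 14006288 reads at 1340 mg/kg/d, fewer than any water library (15354270 or more), and 22922994 to 33872983 at 2680 mg/kg/d, more than any (18983689 or fewer). The part of depth in the kidney results was not tested.

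In water mice, the 38 genes took 1.30% ± 0.064 of all counts in the liver (SD, n = 4) and 1.01% ± 0.024 in the kidney (n = 4) at 1340 mg/kg/d. At 2680 mg/kg/d they took 1.18% ± 0.073 and 0.863% ± 0.024 (n = 3 each). With NMN the shares were 1.48% ± 0.188 and 1.05% ± 0.056 at 1340 mg/kg/d, and 1.38% ± 0.188 and 0.951% ± 0.067 at 2680 mg/kg/d. The mean share was thus higher with NMN in all 4 settings, with a wider spread among the NMN mice than among the water mice.

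Levels of different genes were compared per length, as CPM divided by the exon length in kilobases (RPKM). The length is that of all annotated exons of a gene, such as 8286 bases for Echs1 and 1516 for Acaa2. Ranks therefore depend on how many exons are annotated and are approximate. In the liver of water mice at 1340 mg/kg/d the highest were Phyh, which starts the breakdown of phytanic acid, at 1150 ± 187 RPKM, Scp2, a peroxisomal thiolase and sterol carrier, at 748 ± 108 RPKM, and Acaa2, the mitochondrial thiolase, at 609 ± 64.3 RPKM (n = 4 each). In the kidney at 1340 mg/kg/d Phyh again ranked first, at 348 ± 43.2 RPKM, followed by Ehhadh, the peroxisomal bifunctional enzyme, at 264 ± 13.3 RPKM and Acadm, the medium-chain acyl-CoA dehydrogenase, at 213 ± 20.4 RPKM. The lowest in both organs were Abcd2, a peroxisomal transporter of very long chains, and Cpt1b, the muscle form of carnitine palmitoyltransferase. Cpt1b reached at most 0.232 CPM in the water livers at 1340 mg/kg/d and 0 counts in all 3 water livers at 2680 mg/kg/d, and it was not tested against NMN in the liver. A count of 0 was taken to allow up to 3 counts per library, or 0.171 CPM, while the kidneys held 30 to 38 counts. On library totals this bound puts Cpt1b at least 11.9-fold higher in the kidney at 2680 mg/kg/d. Library totals set the kidney higher against the liver than the trimmed-mean scaling used below. The bound would be smaller with that scaling. Most of its exons (81.4%) are shared with the overlapping gene model Gm44502, which makes its absolute level uncertain.

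The kidney and the liver of water mice differed in most members, and the direction for many of them rested on how the libraries were scaled. With trimmed-mean (TMM) scaling, 34 of 38 members were called at 1340 mg/kg/d (adjusted p under 0.05), beside 66.9% of all 14599 genes tested. Of these, 6 were higher and 28 lower in the kidney, beside 36.1% and 30.9% of all genes. In the 2680 mg/kg/d mice it was again 34 members (70.5% of 14844 genes), 6 higher (39.5%) and 28 lower (31.0%). The median member was at -0.99 and -1.12 on the log2 scale, against 0.10 and 0.17 for all genes. With library totals alone, the median of all genes moved to 1.05 and 1.10, and 14 members were called higher and 16 lower in either schedule, beside 69.6% and 70.0% of all genes called higher and 11.5% and 12.5% called lower. The 6 genes called higher with both scalings were Acox3, Crat, Ehhadh, Acad10, Acadm and Cpt1b.

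Acox3, a branched-chain acyl-CoA oxidase, was higher in the kidney by 2.72 ± 0.13 (log2, SE) at 1340 mg/kg/d and 2.76 ± 0.14 at 2680 mg/kg/d. Crat, the carnitine acetyltransferase that buffers acetyl-CoA, was higher by 1.68 ± 0.13 and 1.91 ± 0.19. Scp2 was lower in the kidney, at -3.26 ± 0.14 and -3.34 ± 0.12. Of the other enzymes that led the liver, Acaa2 was at -2.92 and -3.11 and Phyh at -2.67 and -2.54, while Acsl5, an acyl-CoA synthetase, was at -2.75 and -3.65. These 4 were also called lower with library totals alone, Scp2 for example at -2.31 and -2.41. Cpt1a, the liver form of carnitine palmitoyltransferase that gates entry into the mitochondrion, was not called with TMM scaling, at 0.12 ± 0.22 in both schedules, and was called higher with library totals, at 1.08 and 1.05.

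**Figure D1:**
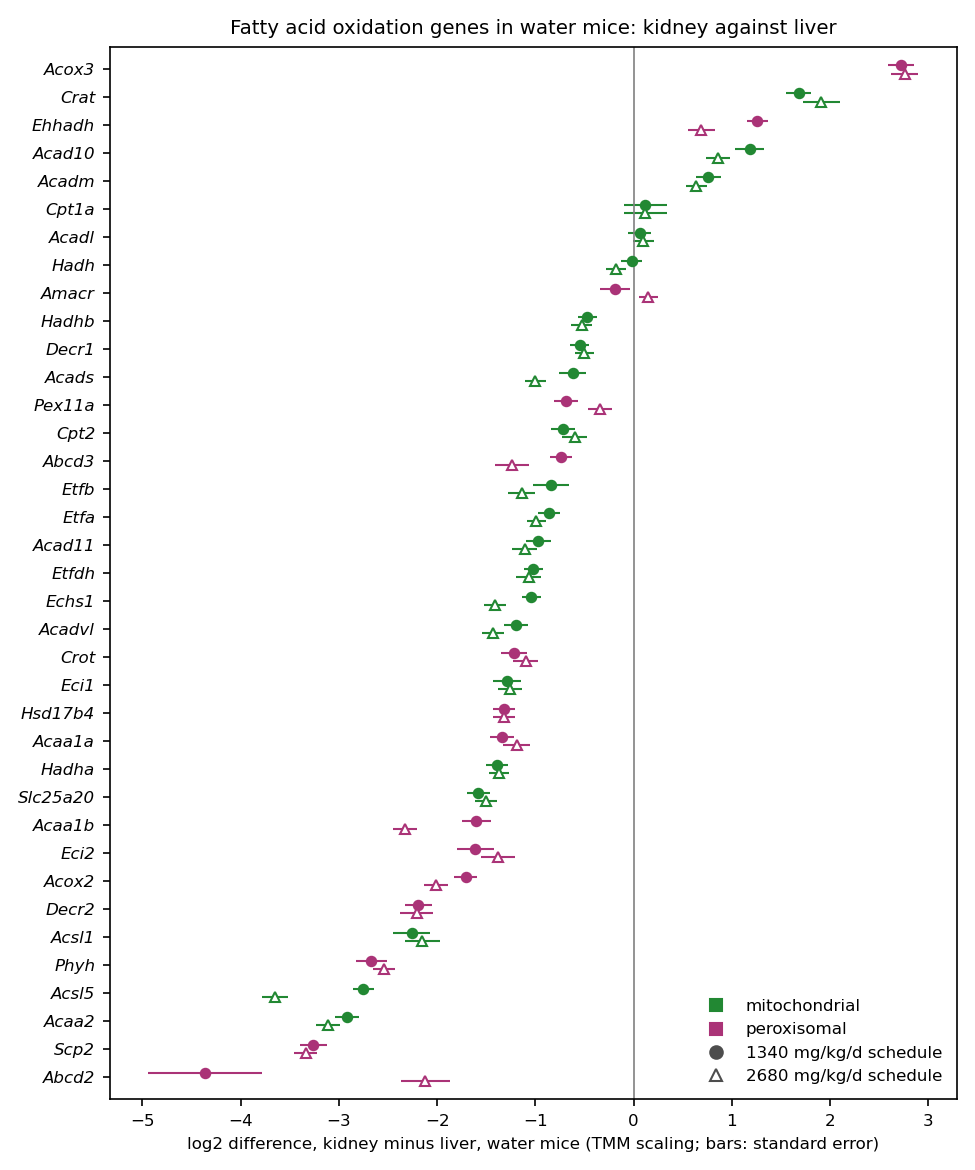
Log2 difference between kidney and liver in water mice (x axis, TMM scaling) for 37 members (y axis), mitochondrial in green and peroxisomal in purple, with circles for the 1340 mg/kg/d schedule, open triangles for the 2680 mg/kg/d schedule and bars for the standard error; Cpt1b is left out because it had 0 counts in the water livers at 2680 mg/kg/d. Acox3 lies farthest to the right, at 2.72 and 2.76, and Scp2 lies near -3.3 in both schedules.

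The first question was which of these genes moved in the liver with 1 gavage of NMN a day. At 1340 mg/kg/d no member reached the threshold of 0.05 on the adjusted p of edgeR's quasi-likelihood test, which 2 of 12449 genes (0.0161%) did, both higher with NMN. Still, 31 of the 37 members tested had a higher estimate with NMN, beside 49.5% of all genes, and the median member was at 0.23 against -0.003 for all genes. In 8 members all NMN mice exceeded all water mice, beside 1.78% of all genes, and in none were all NMN mice below, beside 1.74%. For such a gene the exact permutation test (two-sided) gives p = 0.0286, the smallest that 4 mice against 4 allow, while 3 against 3 cannot go below 0.1. At an unadjusted p under 0.05 there were 10 members, all higher with NMN, beside 6.86% of all genes in either direction. DESeq2 called 4 members, Pex11a, Ehhadh, Crat and Acaa1b, all higher, beside 0.573% of the 12908 genes to which it gave an adjusted p.

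The smallest p belonged to Pex11a, a membrane protein that shapes and divides peroxisomes. It stood at 65.1, 63.6, 56.7 and 67.4 CPM in the 4 water livers and at 101.1, 122.6, 130.6 and 92.8 CPM in the 4 NMN livers. The groups did not overlap, and all 4 NMN mice were high. This made a log2 difference of 0.82 ± 0.14 (adjusted p = 0.0659). Without NMN mouse 4 it was 0.90 ± 0.14 (adjusted p = 0.0253).

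Ehhadh, which carries out the hydration and the second dehydrogenation in the peroxisome, stood at 155.7, 186.5, 174.9 and 165.0 CPM with water and at 248.2, 369.9, 460.6 and 237.6 CPM with NMN. The water mice were tightly grouped, and NMN mice 2 and 3 were the high ones. Its log2 difference was 0.95 ± 0.20 (adjusted p = 0.143), and 1.08 ± 0.18 without NMN mouse 4 (adjusted p = 0.0419).

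Crat stood at 36.3, 29.5, 25.7 and 26.4 CPM with water and at 40.7, 55.6, 71.3 and 41.5 CPM with NMN, again without overlap. Its log2 difference was 0.83 ± 0.19 (adjusted p = 0.253), and 0.92 without NMN mouse 4 (adjusted p = 0.0993). About 8.7% of the exon bases of Crat are shared with genes on the opposite strand, and the counting ignored strand.

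Acaa1b, a peroxisomal thiolase known as a PPARα target in rodent liver, stood at 486.4, 533.7, 356.9 and 563.5 CPM with water and at 775.7, 993.6, 1186 and 549.4 CPM with NMN. NMN mouse 4 fell within the water range and the other three lay above it. Acaa1b had a log2 difference of 0.85 ± 0.22 (adjusted p = 0.35), and 1.02 without NMN mouse 4 (adjusted p = 0.0503). Of all 50-base windows of Acaa1b, 39.6% also occur in another gene, most of these in its paralog Acaa1a and the others in Dlec1, so part of its reads may be lost or misplaced. Acaa1a itself was at 0.27 ± 0.14 (adjusted p = 0.785).

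Eci2, an isomerase that moves double bonds into the position that the cycle needs, stood at 102.9, 194.1, 180.8 and 218.9 CPM with water and at 263.1, 303.7, 305.5 and 240.3 CPM with NMN. No NMN mouse reached down to the water range, in which water mouse 1 was the low one. On the log2 scale Eci2 differed by 0.68 ± 0.20 (adjusted p = 0.446), and by 0.74 without NMN mouse 4 (adjusted p = 0.321).

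At the mitochondrial entry, Cpt1a stood at 115.4, 237.9, 246.7 and 261.2 CPM with water and at 267.7, 261.9, 302.9 and 268.9 CPM with NMN. The groups did not overlap by a margin of under 1 CPM, and water mouse 1 lay far below the rest. The estimate was 0.35 ± 0.21 (adjusted p = 0.805), and 0.37 without NMN mouse 4 (adjusted p = 0.896). With single mice left out it ran from 0.147 to 0.462. Cpt2, the inner-membrane partner, was at 0.15 ± 0.13 and Slc25a20, the carnitine-acylcarnitine carrier, at 0.23 ± 0.14, both with overlap.

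In the mitochondrial cycle, Acadm stood at 204.8, 258.8, 260.0 and 298.2 CPM with water and at 307.4, 347.9, 299.9 and 279.8 CPM with NMN, so that only NMN mouse 4 lay in the water range. Its log2 difference was 0.27 ± 0.14 (adjusted p = 0.774), and 0.32 without that mouse (adjusted p = 0.687). Hadha, the alpha subunit of the trifunctional protein, stood at 316.1, 329.5, 262.9 and 303.1 CPM with water and at 347.2, 335.7, 402.9 and 282.4 CPM with NMN. It was at 0.18 ± 0.14 (adjusted p = 0.846), and at 0.26 without NMN mouse 4 (adjusted p = 0.772). The dehydrogenases Acadl (0.33) and Acadvl (0.20), the thiolase Acaa2 (0.10) and the electron carriers Etfa (0.18) and Etfdh (0.36) were on the same side, and Etfb (-0.05) and the hydratase Echs1 (-0.01) on the other. Taking the 22 mitochondrial members tested, 20 had a higher estimate, with a median of 0.22, and of the 15 peroxisomal members 11 had, with a median of 0.27.

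How far the list moved differed from mouse to mouse. In NMN mice 1, 2 and 3, 26, 24 and 27 of the 37 members lay above all 4 water mice, beside 18.1%, 17.9% and 19.5% of all genes. In NMN mouse 4 it was 8 above and 10 below the water mice, beside 24.0% and 22.2% of all genes. Water mice also departed from the share of all genes: water mouse 4 had 19 of 37 members above the other three water mice (21% of all genes), and water mouse 3 had 19 below them (28.9%). Without NMN mouse 4, 36 of 37 members had a higher estimate, the median was 0.32, and 2 members were called, Pex11a and Ehhadh, both higher, beside 0.142% of 12704 genes. Whether the high share of reads not assigned to a gene in mouse 4 had a part in this was not tested.

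**Figure D2:**
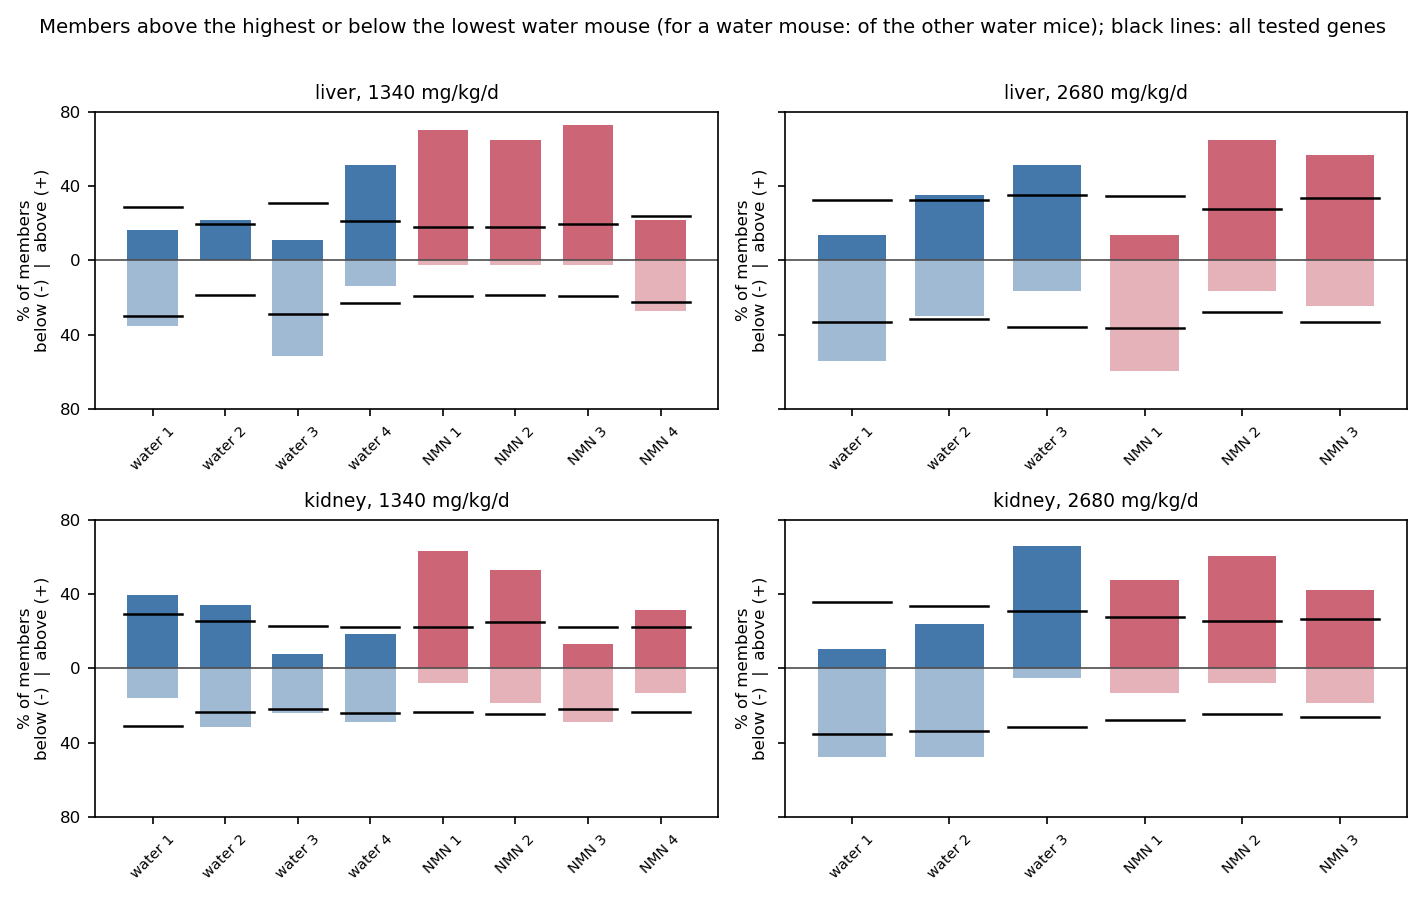
Share of the tested members (y axis, %) that lay above the highest water mouse (upward bars) or below the lowest (downward bars) in each mouse (x axis, water in blue and NMN in red), with a water mouse compared with the other water mice, and black lines for the same share of all tested genes. Liver bars of NMN mice 1, 2 and 3 at 1340 mg/kg/d reach above the lines and those of NMN mouse 4 do not, and at 2680 mg/kg/d NMN mouse 1 stands apart from NMN mice 2 and 3; a single water kidney at 2680 mg/kg/d, number 3, has 25 of 38 members above the other water mice.

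With 2 gavages a day more genes were called in the liver as a whole, and the list split. The higher schedule had 3 of 37 members called, beside 7.08% of 12477 genes, which is about the share among all genes. Crat and Ehhadh rose, beside 3.05% of all genes called higher, and Acsl5 fell, beside 4.03% called lower. The estimate was higher with NMN in 23 members and lower in 14, beside 50.4% of all genes higher, and the median member was at 0.12 against 0.004. This median was 0.21 without NMN mouse 1 and 0.018 without NMN mouse 2. At an unadjusted p under 0.05 there were 11 members, 6 higher and 5 lower, beside 24.6% of all genes. In 5 members all NMN mice lay above all water mice (13.8% of all genes did) and in 4 all lay below (16.0%). With library totals alone the median of all genes moved to 0.15, and the calls were Crat, Ehhadh and Phyh, all higher. The shares of all genes above are those with TMM scaling and do not describe that fit.

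Crat stood at 33.9, 19.2 and 23.2 CPM in the 3 water livers and at 53.7, 98.2 and 74.8 CPM in the 3 NMN livers. Every NMN mouse was above the highest water mouse. The log2 difference was 1.57 ± 0.26, a 2.97-fold rise (adjusted p = 0.00978), and it kept its call with any single mouse left out, with adjusted p from 0.00245 to 0.0452. It was 1.76 without NMN mouse 1.

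Ehhadh stood at 203.3, 196.2 and 261.0 CPM with water and at 300.4, 618.5 and 649.7 CPM with NMN. NMN mouse 1 lay just above the water mice and the other two far above them. The log2 difference was 1.25 ± 0.27, a 2.37-fold rise (adjusted p = 0.0295). Without NMN mouse 1 it was 1.52 ± 0.15 (adjusted p = 0.000496), and with any other single mouse left out it was no longer called, with adjusted p up to 0.116.

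Acsl5 stood at 593.4, 455.5 and 566.6 CPM with water and at 270.9, 417.1 and 342.8 CPM with NMN, with no overlap. The log2 difference was -0.65 ± 0.18 (adjusted p = 0.0495), at the edge of the threshold. Acsl5 was at -0.51 without NMN mouse 1 (adjusted p = 0.0955). The call was lost when any mouse other than NMN mouse 2 was left out, with adjusted p up to 0.166, and also with DESeq2's size factors in the same test and without the robust option. At 1340 mg/kg/d the water livers held 260.9 to 303.1 CPM of Acsl5 and the NMN livers 224.4 to 390.4 CPM. The schedules were thus far apart in their water mice, though they were scaled separately. About 8.3% of the exon bases of Acsl5 are shared with Zdhhc6 on the opposite strand.

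Pex11a stood at 44.0, 48.3 and 47.2 CPM with water and at 39.9, 111.4 and 85.0 CPM with NMN. NMN mouse 1 lay below the water mice and the other two above them, and the difference of 0.76 ± 0.32 did not pass (adjusted p = 0.182). Eci2 showed the same order, with NMN mouse 1 at 133.1 CPM inside the water range and the others at 283.4 and 258.8 CPM, for 0.73 ± 0.29 (adjusted p = 0.159). Without NMN mouse 1 Pex11a was at 1.07 ± 0.17 (adjusted p = 0.00484) and Eci2 at 1.00 ± 0.19 (adjusted p = 0.0141). Both genes are among the list values by which this mouse was picked.

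Without NMN mouse 1, 7 members were called, 5 higher and 2 lower, beside 5.60% of 12812 genes (2.13% higher and 3.47% lower). These calls follow in part from leaving out a mouse picked by the list's own values. Crat, Ehhadh, Pex11a, Eci2 and Phyh were then higher, Scp2 (-0.73 ± 0.16, adjusted p = 0.021) and Abcd2 (-1.15 ± 0.26, adjusted p = 0.0264) lower, and Acsl5 was no longer called. With all mice, Scp2 stood at 1796, 1632 and 1941 CPM with water and at 1405, 1239 and 922 CPM with NMN. Its difference of -0.59 ± 0.16 lay just outside the threshold (adjusted p = 0.0518). Part of Scp2 (29.7% of its 50-base windows) also occurs in another gene, chiefly the pseudogene Scp2-ps2. Phyh stood at 2278, 2506 and 2394 CPM with water and at 2807, 3506 and 3243 CPM with NMN, for 0.41 ± 0.13 (adjusted p = 0.0768). Without NMN mouse 1 it was at 0.49 ± 0.12 (adjusted p = 0.035).

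Apart from Crat and Acsl5 no mitochondrial member passed at 2680 mg/kg/d. Cpt1a stood at 124.7, 220.6 and 234.7 CPM with water and at 268.5, 279.5 and 277.5 CPM with NMN, without overlap. Its log2 difference was 0.51 ± 0.21 (adjusted p = 0.165), and 0.52 without NMN mouse 1 (adjusted p = 0.243). With single mice left out it ran from 0.273 to 0.671. Acadm stood at 230.5, 260.8 and 273.8 CPM with water and at 235.0, 300.0 and 294.5 CPM with NMN. The difference was 0.12 ± 0.15 (adjusted p = 0.672), and 0.21 without NMN mouse 1 (adjusted p = 0.417), with a range of 0.0473 to 0.215 over single mice left out. Hadha was at 312.9, 338.9 and 337.6 CPM with water and at 237.0, 346.3 and 290.1 CPM with NMN. It differed by -0.18 ± 0.16 (adjusted p = 0.518), and by -0.06 without NMN mouse 1 (adjusted p = 0.871), with a range of -0.33 to -0.0572.

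Other steps of the mitochondrial cycle lay on the low side, all short of the threshold. Acads, for short chains, was at -0.39 ± 0.17 (adjusted p = 0.191), Acad10 at -0.43 ± 0.18 (adjusted p = 0.174) and Acaa2 at -0.36 ± 0.19 (adjusted p = 0.265). Of the 22 mitochondrial members tested, 13 had a higher estimate, with a median of 0.07, and of the 15 peroxisomal members 10 had, with a median of 0.19. Acaa1b stood at 369.4, 413.4 and 442.7 CPM with water and at 304.1, 686.4 and 505.8 CPM with NMN. Its difference of 0.29 ± 0.25 (adjusted p = 0.523) turned to -0.02 when a single mouse was left out, and was 0.54 without NMN mouse 1 (adjusted p = 0.0781).

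**Figure D3:**
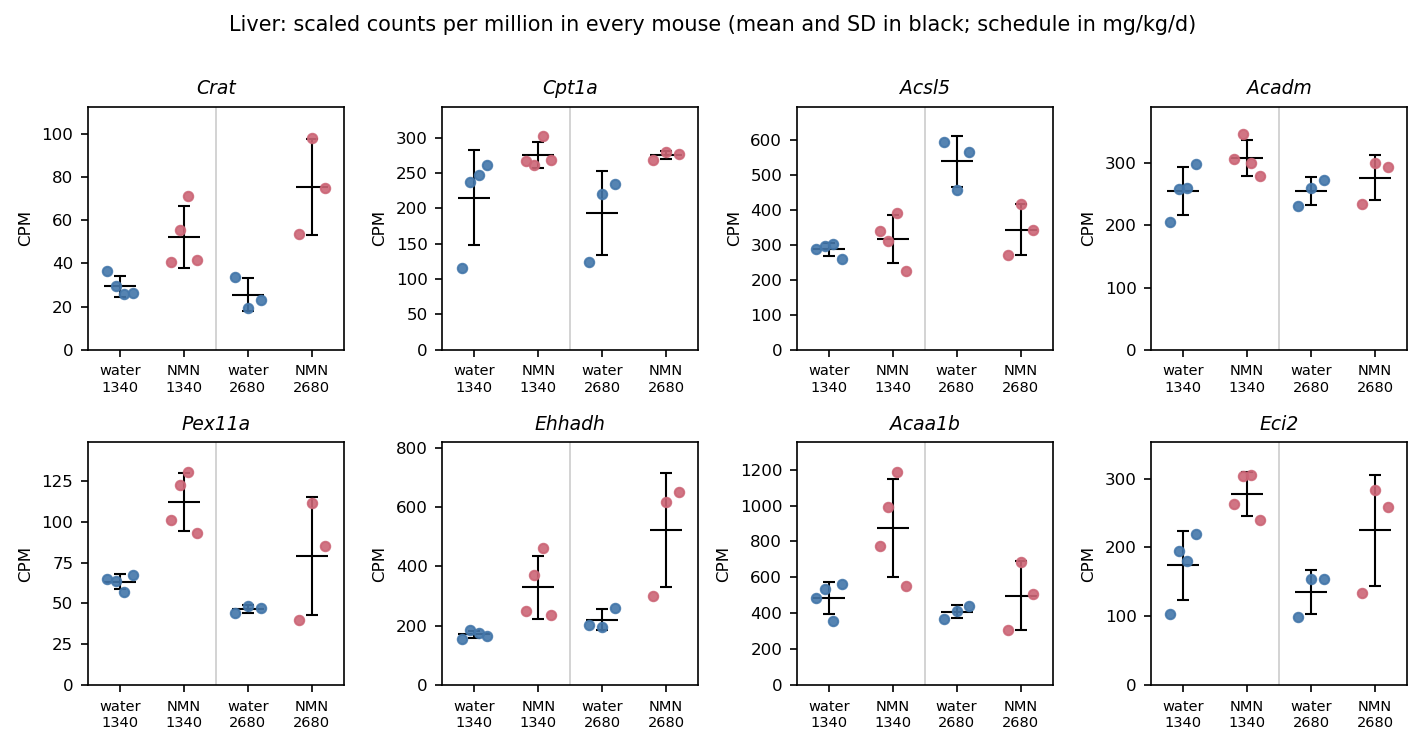
Scaled CPM (y axis) of 8 members in every liver, water in blue and NMN in red, by schedule in mg/kg/d (x axis), with the mean and SD in black. Crat and Ehhadh are above the water mice in every NMN mouse of both schedules, while Pex11a, Acaa1b and Eci2 are so in NMN mice 2 and 3 of the 2680 mg/kg/d schedule but not in NMN mouse 1.

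Sums of other markers also differed in the same livers, and a sum led by a single gene does not give the direction of the rest. At 2680 mg/kg/d the 10 liver markers summed to 137081, 142408 and 147058 CPM with NMN, below 160286 to 168870 CPM with water, led by Alb in every library. The 10 adipocyte markers summed to 1074, 2005 and 2108 CPM with NMN against 3933 to 4079 CPM with water, led by Car3, which hepatocytes also express. Of the 10, 4 to 6 were at 0 in each of these livers, Lep, Retn, Cidea and Ucp1 in all of them. At 1340 mg/kg/d the liver markers overlapped, from 110685 to 137434 CPM with NMN and from 111634 to 137870 CPM with water. The share of mitochondrially encoded counts at 2680 mg/kg/d was 7.81% ± 1.24 with NMN and 6.67% ± 0.839 with water (n = 3). Their part in the differences of the list was not tested.

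The change of the NMN effect between schedules was tested within the liver as an interaction over 14 libraries. No member passed, beside 0.0746% of 13412 genes (0.0149% with a higher and 0.0596% with a lower effect at 2680 mg/kg/d), and 4 members had an unadjusted p under 0.05, beside 8.60% of all genes. The estimate was lower at 2680 mg/kg/d in 28 of 37 members, with a median of -0.17, beside 51.6% of all genes with an estimate above 0. Without NMN mouse 1 of the 2680 mg/kg/d schedule it was 21 of 37 with a median of -0.02, and with library totals alone it was 20 of 37 with a median of -0.05. The smallest p belonged to Acsl5, at -0.78 ± 0.25 (adjusted p = 0.354), followed by Etfdh at -0.47 ± 0.19 (adjusted p = 0.476) and Crat at 0.75 ± 0.34 (adjusted p = 0.555).

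Set side by side, 22 of 37 members had a higher estimate with NMN in the liver in both schedules, beside 34.1% of the 11982 genes tested in both, and 5 a lower one in both, beside 34.3%. Another 9 were higher at 1340 mg/kg/d and lower at 2680 mg/kg/d, and 1 the reverse. Across the 37 members the estimates of the schedules had a Pearson r of 0.77 (Spearman 0.66), against a Pearson r of 0.47 across all genes. The schedules used different mice for both NMN and water, and members are not independent of each other.

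In the kidney, whose tubules use much fatty acid, no member passed at 1340 mg/kg/d, beside 0.120% of 14972 genes (0.0668% called higher and 0.0534% lower). The estimate was higher with NMN in 27 of 38 members, beside 50.3% of all genes, and the median was 0.08 against 0.001 for all genes. At an unadjusted p under 0.05 there were 2 members, Acaa1b and Cpt1a, beside 8.94% of all genes, and DESeq2 called none. In no member did the groups separate, beside 2.29% of all genes with NMN above water and 2.83% below.

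Acaa1b stood at 304.6, 299.4, 325.8 and 310.6 CPM with water and at 400.1, 417.2, 305.1 and 357.8 CPM with NMN, so that only NMN mouse 3 lay among the water mice. The log2 difference was 0.25 ± 0.10 (adjusted p = 0.45). Cpt1a stood at 357.9, 530.3, 475.5 and 448.6 CPM with water and at 562.8, 567.8, 502.9 and 500.6 CPM with NMN. NMN mice 1 and 2 lay above all water mice, and the difference was 0.24 ± 0.11 (adjusted p = 0.554).

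Hsd17b4, the multifunctional enzyme that handles branched chains and bile acid intermediates, stood at 245.4, 244.4, 241.7 and 220.2 CPM with water and at 281.6, 295.9, 232.8 and 278.2 CPM with NMN. Acox2, an oxidase of branched chains and bile acid side chains, stood at 119.8, 122.6, 115.1 and 114.6 CPM with water and at 141.8, 144.3, 112.0 and 140.6 CPM with NMN. In both genes NMN mouse 3 was the low one and the other three lay above the water mice. The log2 differences were 0.19 ± 0.09 (adjusted p = 0.564) for Hsd17b4 and 0.19 ± 0.10 (adjusted p = 0.583) for Acox2.

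Hadh, the mitochondrial dehydrogenase for medium and short chains, stood at 636.3, 526.0, 589.5 and 577.3 CPM with water and at 585.7, 485.4, 464.1 and 503.5 CPM with NMN, at -0.19 ± 0.10 (adjusted p = 0.583). Ehhadh, which stood out in the liver, was at 776.4, 845.7, 769.1 and 757.7 CPM with water and at 980.1, 926.2, 659.2 and 769.2 CPM with NMN. The NMN mice lay on both sides of the water mice, for 0.08 ± 0.11 (adjusted p = 0.877). Acadm was at -0.02 ± 0.11 and Hadha at 0.13 ± 0.09, Acadm with 944.6, 821.2, 755.4 and 812.1 CPM for water and 944.4, 822.8, 651.5 and 869.4 CPM for NMN. Hadha had 221.8, 238.3, 227.0 and 206.1 CPM with water and 252.6, 260.4, 232.0 and 233.4 CPM with NMN, with overlap at the upper end of the water mice.

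In the kidney at 2680 mg/kg/d again no member passed, beside 0.400% of 15245 genes (0.118% called higher and 0.282% lower), and 7 members had an unadjusted p under 0.05, all higher with NMN, beside 11.1% of all genes. The estimate was higher in 32 of 38 members, beside 50.8% of all genes, with a median of 0.14 against 0.004. In 7 members all NMN mice lay above all water mice (8.47% of all genes did), and in 1, Hadh, all lay below (8.69%). DESeq2 called 2 members, Hsd17b4 and Acaa1b, both higher, beside 1.52% of the 15562 genes to which it gave an adjusted p.

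Hsd17b4 stood at 189.8, 202.4 and 209.8 CPM with water and at 261.8, 275.7 and 257.8 CPM with NMN. The lowest NMN mouse lay well above the highest water mouse, and the log2 difference of 0.40 ± 0.08 lay just outside the threshold (adjusted p = 0.0544). Without NMN mouse 1 it was 0.41 (adjusted p = 0.0366), in a fit that called 1.25% of all genes. Acaa1b stood at 142.6, 133.8 and 163.4 CPM with water and at 257.5, 217.8 and 185.3 CPM with NMN, without overlap, for 0.59 ± 0.12 (adjusted p = 0.0736).

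Acad11, a dehydrogenase for very long and hydroxylated chains, stood at 186.1, 207.3 and 224.7 CPM with water and at 259.4, 258.2 and 244.3 CPM with NMN. The groups did not overlap, for 0.30 ± 0.09 (adjusted p = 0.195). Cpt1a stood at 313.3, 388.7 and 441.3 CPM with water and at 436.8, 508.4 and 481.3 CPM with NMN, for 0.32 ± 0.12 (adjusted p = 0.338). NMN mouse 1 lay below the highest water mouse.

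Eci1, the mitochondrial isomerase, stood at 91.0, 73.1 and 78.7 CPM with water and at 95.2, 95.7 and 93.7 CPM with NMN, for 0.23 ± 0.09 (adjusted p = 0.36). Ehhadh stood at 683.8, 546.4 and 690.0 CPM with water and at 1060, 831.5 and 655.0 CPM with NMN. NMN mouse 1 was the high one and NMN mouse 3 lay in the water range, for 0.41 ± 0.17 (adjusted p = 0.431). With single mice left out the estimate ran from 0.211 to 0.564. Acadm had 698.0, 716.7 and 742.8 CPM with water and 905.0, 831.4 and 699.3 CPM with NMN, for 0.17 ± 0.10 (adjusted p = 0.564).

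Hadha was at 0.00 ± 0.08, with 218.9, 227.5 and 243.5 CPM for water and 224.0, 232.1 and 235.0 CPM for NMN, and its sign changed with the scaling. Crat, which rose in the liver, stood at 172.9, 161.3 and 183.2 CPM with water and at 162.5, 178.9 and 183.5 CPM with NMN in the kidney, for 0.02 ± 0.08 (adjusted p = 0.953). Of the 23 mitochondrial members 19 had a higher estimate and of the 15 peroxisomal members 13 had, both with a median of 0.14.

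**Figure D4:**
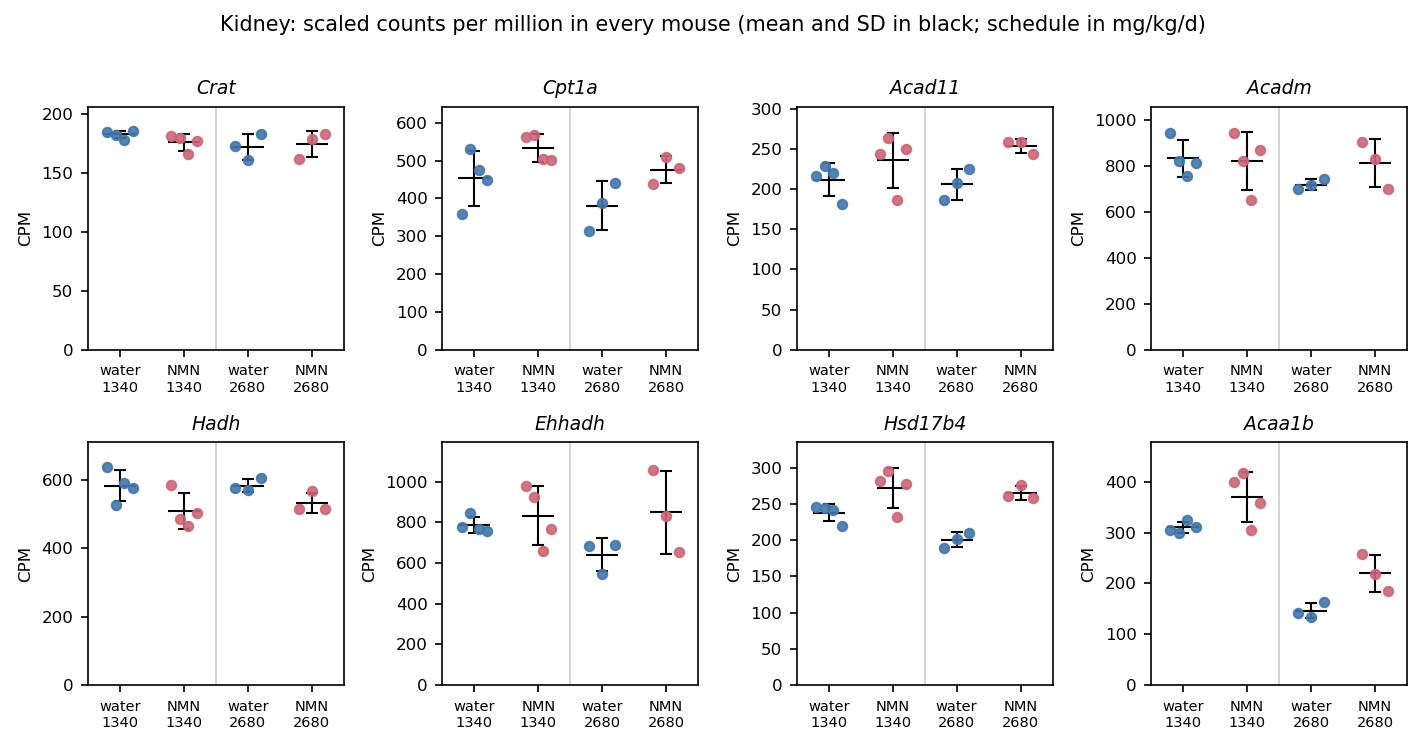
Scaled CPM (y axis) of 8 members in every kidney, water in blue and NMN in red, by schedule in mg/kg/d (x axis), with the mean and SD in black. At 2680 mg/kg/d Hsd17b4, Acaa1b and Acad11 are above the water mice in all 3 NMN mice, while Crat overlaps in both schedules.

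The summed proximal tubule markers moved with NMN in the same kidneys, in the other direction. A sum led by a single gene does not give the direction of the other markers. Their sum was 30984, 26043, 31729 and 30981 CPM with NMN against 34245 to 41441 CPM with water at 1340 mg/kg/d, and 24104, 29143 and 24824 CPM against 32555 to 34409 CPM at 2680 mg/kg/d. Kap was the most abundant in every kidney and none of the 12 was at 0. The 12 markers of the distal nephron and glomerulus, led by Umod, summed to 5867 to 6464 CPM with NMN and 4634 to 5563 CPM with water at 1340 mg/kg/d, and overlapped at 2680 mg/kg/d. Their part in the values of the list was not tested.

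In the kidney no member passed for a difference of the NMN effect between schedules, beside 0.00625% of 15989 genes called. Of 38 members, 26 had a higher estimate at 2680 mg/kg/d, beside 50.7% of all genes, with a median of 0.07, and 1 member, Amacr, the racemase that readies branched chains for oxidation, had an unadjusted p under 0.05 (0.44 on the log2 scale), beside 4.62% of all genes.

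The NMN effect was also compared between organs. At 1340 mg/kg/d no member passed, and neither did any of 15614 genes (0%). At an unadjusted p under 0.05 there were 7 members, all with a smaller effect in the kidney, beside 5.79% of all genes in either direction, and 31 of 38 estimates were smaller in the kidney, while 50.8% of all genes had a larger one. At 2680 mg/kg/d 1 member passed, beside 2.65% of 15811 genes (1.60% with a higher and 1.05% with a lower effect in the kidney). This was Crat, whose effect in the kidney was smaller by 1.54 ± 0.30 on the log2 scale, written as a difference of -1.54 (adjusted p = 0.0177). With single mice left out the adjusted p ran from 0.00283 to 0.056. Acsl5 was next, at 0.80 ± 0.22 (adjusted p = 0.0683), then Acad10 at 0.60 ± 0.17 (adjusted p = 0.0723), while the whole list was split 22 higher to 16 lower in the kidney, beside 50.2% of all genes higher. Without liver NMN mouse 1, Crat, Ehhadh, Pex11a and Eci2 were called, each with the smaller effect in the kidney, beside 2.52% of all genes (1.04% with a smaller effect). That mouse was picked by the list's own liver values, so these calls follow in part from the choice.

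**Figure D5:**
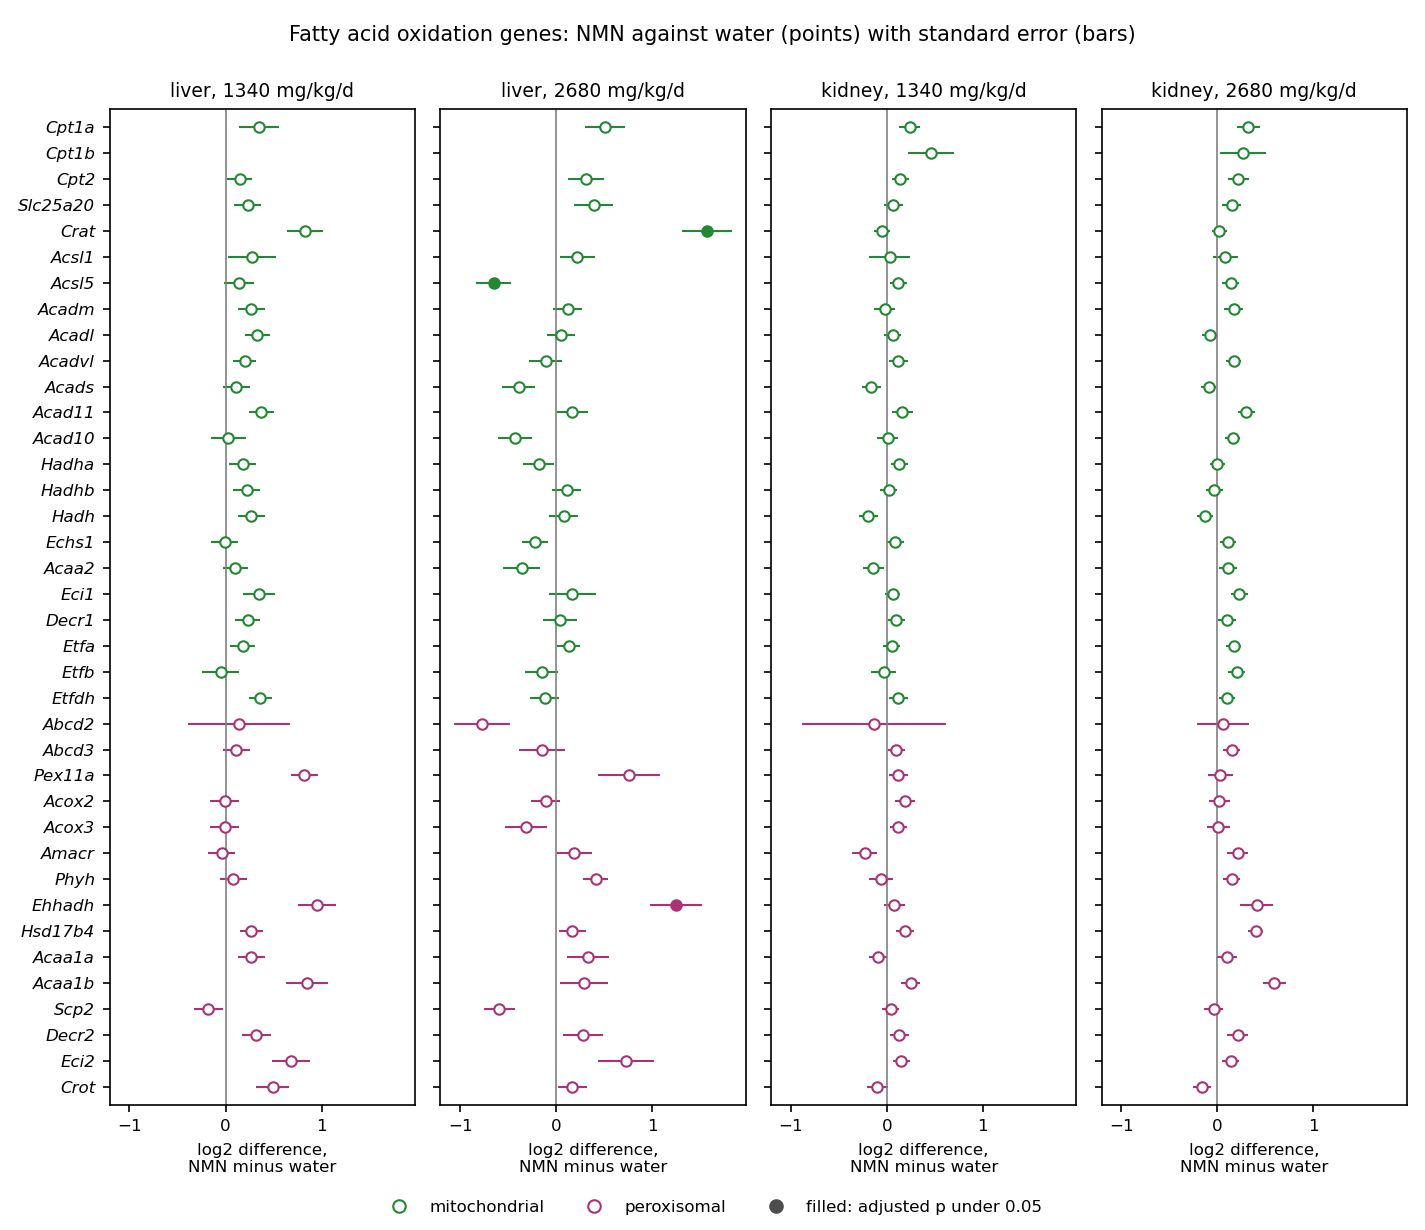
Log2 difference between NMN and water (x axis) for the 38 members (y axis) in each organ and schedule, mitochondrial members in green and peroxisomal members in purple, with bars for the standard error and filled points for an adjusted p under 0.05. Only Crat, Ehhadh and Acsl5 are filled, all in the liver at 2680 mg/kg/d, at 1.57, 1.25 and -0.65.

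The sequence upstream of start sites was read where a reference entry was given, since several members were high together in the same livers. Promoters from RefSeq (GRCm38.p6) matched 31 of 38 members, with 34 start sites. Cpt1b, Crat, Acaa2, Decr1, Abcd2, Amacr and Hsd17b4 had no entry. The 250 bases before the start site are shown for Pex11a and Ehhadh, the members with the smallest p at 1340 mg/kg/d. They are also shown for Cpt1a, and for Acsl5, which went the other way at 2680 mg/kg/d. For Cpt1a and Acsl5 these bases lie inside the gene as annotated in GENCODE M21, which starts at 3322334 and 55251938. They precede a later start site of these genes. Capitals mark the motif AGGTCA, the half-site of nuclear receptors, or its reverse complement TGACCT.
Pex11a, chr7:79743132-79743381, minus strand: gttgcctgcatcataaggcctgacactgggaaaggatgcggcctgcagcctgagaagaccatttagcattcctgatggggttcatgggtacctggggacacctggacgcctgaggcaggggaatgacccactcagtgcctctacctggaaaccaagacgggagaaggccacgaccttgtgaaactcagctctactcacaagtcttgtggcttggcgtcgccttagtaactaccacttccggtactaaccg
Ehhadh, chr16:21787835-21788084, minus strand: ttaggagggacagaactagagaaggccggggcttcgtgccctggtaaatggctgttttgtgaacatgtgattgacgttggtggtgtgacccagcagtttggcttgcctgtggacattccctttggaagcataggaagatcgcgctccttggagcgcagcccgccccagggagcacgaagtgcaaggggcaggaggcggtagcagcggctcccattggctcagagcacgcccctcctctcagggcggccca
Cpt1a, chr19:3323051-3323300, plus strand: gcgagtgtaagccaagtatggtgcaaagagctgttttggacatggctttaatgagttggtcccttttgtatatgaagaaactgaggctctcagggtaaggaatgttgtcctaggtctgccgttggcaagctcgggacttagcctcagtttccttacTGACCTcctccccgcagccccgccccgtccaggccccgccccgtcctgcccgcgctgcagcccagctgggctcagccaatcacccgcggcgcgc
Acsl5, chr19:55253119-55253368, plus strand: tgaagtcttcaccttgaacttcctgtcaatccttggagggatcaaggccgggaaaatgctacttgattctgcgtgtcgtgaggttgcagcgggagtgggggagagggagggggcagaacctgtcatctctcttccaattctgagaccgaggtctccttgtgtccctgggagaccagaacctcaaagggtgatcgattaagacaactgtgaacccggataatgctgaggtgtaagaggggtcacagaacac

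Of these 4, Cpt1a alone held the half-site. Among all members 5 of 34 promoters held it on either strand (14.71%), those of Cpt1a, Acadm, Acadvl, Echs1 and Scp2, against 4607 of 32851 promoters in the table (14.02%). The full element of PPARα and its partner RXR, known as DR1, is 2 half-sites in the same direction with 1 base between, AGGTCANAGGTCA. With up to 2 mismatches in its 12 defined bases it was found in 2 of 34 member promoters (5.88%) and in 1063 of 32851 (3.24%), and without mismatch in none of the 34 and in 11 of 32851 (0.033%). The 2 matches were AGGTCACGGGTCC in Echs1, from 83 to 71 bases before the start site, and TTACCTTTGCCCT in Etfa, from 77 to 65 bases before it on the other strand. The AGGTCA of Echs1 is part of its DR1 match. Echs1 and Etfa were not called with NMN in either organ or schedule. The window is short, and sites elsewhere were not searched.

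Around the list, other genes of the pathway were counted in the same fits. With NMN at 1340 mg/kg/d none of 5 lists in the liver had a called gene, in a fit that called few of all genes, as given above. The smallest p in each belonged to Hnf4a, a master regulator of hepatocyte genes, at 0.68 ± 0.13 (adjusted p = 0.117), Slc22a5, the carnitine importer, at 1.00 ± 0.20 (adjusted p = 0.132), Acbd4 at -0.44 ± 0.13 (adjusted p = 0.40), Acot2, a mitochondrial thioesterase, at 1.34 ± 0.39 (adjusted p = 0.435) and Pex11g at -0.46 ± 0.15 (adjusted p = 0.478). For fatty acid uptake and carnitine supply 9 of 10 tested genes had a higher estimate, with a median of 0.18. For regulators 14 of 18 had one, with a median of 0.17. The share of all genes with a higher estimate in this fit is given above. The other peroxisomal enzymes were split 10 to 11, other mitochondrial acyl-CoA enzymes 12 to 12, and 6 of 18 peroxins, which build the organelle, and fission factors, which divide it and mitochondria, were higher.

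With NMN at 2680 mg/kg/d the liver genes around the list changed in both directions. Of the 21 other peroxisomal enzymes and transporters tested, 1 rose and 6 fell, beside 3.05% of all genes called higher and 4.03% called lower, which are also the shares for the lists that follow. Pxmp2, a channel of the peroxisomal membrane, fell by 0.91 (SE 0.15, adjusted p = 0.00843), and Nudt7, which cleaves coenzyme A, fell by 1.34 (SE 0.25, adjusted p = 0.0169). Acbd5, an acyl-CoA binding protein of the membrane, rose by 0.87 ± 0.18 (adjusted p = 0.0204).

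Of 23 other mitochondrial acyl-CoA enzymes 1 rose and 2 fell. The largest was Acacb, which makes the malonyl-CoA that inhibits Cpt1, at -2.17 ± 0.33 (adjusted p = 0.01), from 88.1 ± 16.0 CPM to 19.6 ± 9.66 CPM (n = 3 each). Pcca, of propionyl-CoA carboxylase, fell by 0.65 (adjusted p = 0.0317) and Acsl3, an acyl-CoA synthetase, rose by 0.83 (adjusted p = 0.0421).

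In carnitine supply, Slc22a5 rose by 1.65 ± 0.39 (adjusted p = 0.0416) while Dbi, the acyl-CoA binding protein of the cytosol, fell by 0.60 (adjusted p = 0.0416), so that of 10 genes of uptake and supply 1 rose and 1 fell. Of 18 regulators 1 rose, the corepressor Ncor1, by 0.90 ± 0.21 (adjusted p = 0.0312), and of 18 peroxins and fission factors 1, the fission factor Mff, by 0.58 (adjusted p = 0.0347).

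In the kidney only 1 of these genes was called in the NMN comparisons, beside 0.120% of all genes at 1340 mg/kg/d and 0.400% at 2680 mg/kg/d. At 2680 mg/kg/d Hao2, a peroxisomal hydroxy acid oxidase, fell by 1.31 (SE 0.09, adjusted p = 9.34e-05), from 294 ± 15.6 to 119 ± 12.4 CPM (n = 3 each), and its NMN effect was lower than at 1340 mg/kg/d by a log2 difference of -1.17 ± 0.18 (adjusted p = 0.0415). Below the threshold at 2680 mg/kg/d the smallest p of each other list belonged to Slc27a1 (0.43, adjusted p = 0.055), Acad12 (0.32, adjusted p = 0.142), Ppara (0.54, adjusted p = 0.231) and Pex6 (0.24, adjusted p = 0.253). At 1340 mg/kg/d they belonged to Acot2 (0.54, adjusted p = 0.14), Tysnd1 (-0.36, adjusted p = 0.272), Dnm1l (0.25, adjusted p = 0.398), Med1 (0.25, adjusted p = 0.454) and Fabp3 (-0.18, adjusted p = 0.681).

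By direction, the kidney at 1340 mg/kg/d had a higher estimate with NMN in 6 of 12 genes of uptake and supply, 12 of 25 other mitochondrial enzymes, 10 of 23 other peroxisomal genes, 9 of 18 peroxins and fission factors and 6 of 18 regulators. For 2680 mg/kg/d the same lists had 7 of 11, 12 of 25, 13 of 23, 12 of 18 and 13 of 17. The share of all genes with a higher estimate is given above for each fit. Between organs at 2680 mg/kg/d, 4 of these genes passed, each with a higher NMN effect in the kidney than in the liver, beside 1.60% of all genes: Acacb by 2.41 (adjusted p = 0.00653), Nudt7 by 1.49 (adjusted p = 0.0217), Slc25a17, a carrier of coenzyme A into peroxisomes, by 0.75 (adjusted p = 0.0216) and Pxmp2 by 0.82 (adjusted p = 0.031).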

How the data were processed

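The deposited files held whole-number read counts per gene, made by the authors with STAR and HTSeq. Reads were counted in the strict intersection mode without regard to strand. Gene names came from GENCODE M21, and the study's name for its build was not matched to coordinates. Counts were analysed with edgeR 4.0.16 (R 4.3.3): filterByExpr with a minimum count of 10, TMM scaling and the quasi-likelihood test, with Benjamini-Hochberg adjustment over all genes tested and a threshold of 0.05. CPM in the comparisons are TMM-scaled within a comparison, while the marker sums and the bound for Cpt1b rest on library totals. DESeq2 1.42.0, other scalings, filters and fits, and each library left out in turn, were alternatives. The fits were tested on simulated data. The members and lists were chosen with earlier results of these data known. Per NMN comparison, values in every mouse are given for members past the threshold (or, where fewer than 3 pass, the 5 with the smallest p) and for Cpt1a, Acadm, Hadha, Ehhadh and Acaa1b. Of each other list, counts are given with up to 3 called genes of smallest p, or 1 where none was called. Some genes and 1 list are not reported here. Further genes were named after their values were seen. The p-values measure the spread between the mice of one experiment.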

Additional observations from a re-analysis of the deposited data

Results flagged for a closer look

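In 150 groups of 4 mice, each holding 1 gene's values, a single mouse lay apart from the other three in 7, by Dixon's test, which about 5% of groups pass by chance. In the liver at 1340 mg/kg/d, water mouse 1 was low for Cpt1a, at 115.4 CPM against 237.9 to 261.2 CPM, and for Etfdh, at 177.7 CPM against 184.4 to 185.5 CPM. NMN mouse 3 was high for Cpt1a, at 302.9 CPM against 261.9 to 268.9 CPM. NMN mouse 4 was low for Eci1, at 111.3 CPM against 161.1 to 166.6 CPM, and for Crot, the peroxisomal carnitine octanoyltransferase, at 454.7 CPM against 767.6 to 829.2 CPM. In the kidney at 1340 mg/kg/d, water mouse 4 was low for Hsd17b4, at 220.2 CPM against 241.7 to 245.4 CPM, and NMN mouse 3 was low for Acox2, at 112.0 CPM against 140.6 to 144.3 CPM.

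The NMN effect on Crat differed between the organs at 2680 mg/kg/d, by a log2 difference of -1.54 for the kidney minus the liver (adjusted p = 0.0177, edgeR interaction test).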

How the results depend on the processing

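Counts of called members differed between settings. In the liver at 1340 mg/kg/d the count was 0 in edgeR, 4 with DESeq2 (0.573% of all genes in that fit), 3 with no filter (0.194%) and 10 at an unadjusted p under 0.05 (6.86%). In the liver at 2680 mg/kg/d it was 3, and 5 with DESeq2 (11.6%), 9 with no filter (8.47%), 11 unadjusted (24.6%) and 1 at an adjusted p under 0.01 with a fold over 2 or under 0.5 (1.08%). In the kidney at 1340 mg/kg/d it was 0, and 2 unadjusted (8.94%), and at 2680 mg/kg/d it was 0, and 2 with DESeq2 (1.52%), 1 with library totals alone (0.407%), 5 with no filter (1.91%) and 7 unadjusted (11.1%). The unadjusted counts for schedules were 4 in the liver (8.60%) and 1 in the kidney (4.62%), and for organs 7 at 1340 mg/kg/d (5.79%). For organs at 2680 mg/kg/d the count was 1, and 3 with DESeq2 (7.67%), 4 with no filter (4.69%), 7 unadjusted (19.4%) and 0 at the stricter threshold (0.379%), and the member median of 0.07 became -0.085 with library totals alone. The member median between water kidneys and livers was -0.844 and -0.967 with upper quartile scaling, -0.045 and -0.194 with library totals alone, and -0.863 and -1.035 with at least 10 counts in every library, in the order of the schedules. Hadha in the kidney at 2680 mg/kg/d turned to -0.000295 with DESeq2's size factors, -0.000836 with upper quartile scaling and -0.00252 with all libraries in one fit.

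With 1 library left out, counts of called members ran from 0 to 2 and from 1 to 7 in the liver, from 0 to 0 and from 0 to 1 in the kidney, and from 0 to 4 for organs at 2680 mg/kg/d. The member median ran from 0.186 to 0.321 and from 0.018 to 0.213 in the liver, from 0.048 to 0.117 and from 0.109 to 0.172 in the kidney, from -0.278 to -0.125 and from -0.088 to 0.229 for organs, from -0.252 to -0.021 for schedules in the liver and from 0.033 to 0.13 in the kidney, and from -1.04 to -0.958 and from -1.192 to -1.088 between water organs, in the order of the schedules. Estimates that changed sign were those of Acaa1b in the liver at 2680 mg/kg/d (-0.0202 to 0.54), Acadm (-0.0931 to 0.0763) and Ehhadh (-0.00418 to 0.18) in the kidney at 1340 mg/kg/d, and Hadha in the kidney at 2680 mg/kg/d (-0.0362 to 0.046). Others moved without a change of sign, among them Hadha in the liver at 1340 mg/kg/d (0.0874 to 0.258). In the kidney at 2680 mg/kg/d, Acadm (0.0852 to 0.273) and Cpt1a (0.192 to 0.438) also did. The causes were not tested. Calls among all genes ran from 0 to 18 and from 211 to 1308 in the liver and from 5 to 67 and from 3 to 191 in the kidney, and from 118 to 1347 for organs at 2680 mg/kg/d. Of 216 values that answer a comparison, 190 kept their call or stayed within their limits under the other settings and 26 did not. Cpt1b had too few counts to be tested against NMN in the liver.

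The labels do not say what a replicate number marks, and the numbers were not taken to pair the mice: same-numbered libraries correlated between -0.131 and 0.284 and in no pair of groups were all above 0.1. In water mice every liver correlated best with the kidney of its own number. The r was 0.284, 0.094, 0.214 and 0.143 at 1340 mg/kg/d and 0.226, 0.095 and 0.141 at 2680 mg/kg/d. In the liver at 2680 mg/kg/d every NMN mouse did so with the water mouse of its own number (r of 0.062, 0.20 and 0.239). This is a hint from the data and not from the labels. Kidney against liver in water mice was tested without pairing. With the number as a replicate block, 0 and 3 members were called in the liver (Crat, Eci2 and Ehhadh, without Acsl5), beside 0.129% and 9.24% of all genes, 0 and 0 in the kidney, beside 0.501% and 0.603%, and 1, Crat, between organs at 2680 mg/kg/d, beside 1.56%.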

Other observations

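Genes of the other pathway lists were also called between the organs of water mice with TMM scaling, beside 36.1% of all genes called higher and 30.9% lower at 1340 mg/kg/d, and 39.5% and 31.0% at 2680 mg/kg/d. Of 18 peroxins and fission factors, 2 were called higher and 12 lower in the kidney at 1340 mg/kg/d, and 3 and 12 at 2680 mg/kg/d. With library totals alone these were 6 and 6, and 7 and 6, beside 69.6% and 11.5%, and 70.0% and 12.5% of all genes. Of 12 genes of fatty acid uptake and carnitine supply, 7 were called higher and 4 lower at 1340 mg/kg/d, and 6 and 5 at 2680 mg/kg/d, and with library totals alone 8 and 4 in either schedule. Other mitochondrial acyl-CoA enzymes were called 11 higher and 13 lower of 26, and 8 and 11 of 25. Other peroxisomal enzymes and transporters were called 5 and 9, and then 6 and 11, of 23, and regulators 6 and 6, and then 6 and 8, of 18. With library totals alone these were 16 and 5, and 17 and 5, for the mitochondrial enzymes, 15 and 6, and 15 and 7, for the peroxisomal genes, and 10 and 4, and 9 and 3, for the regulators.

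Cpt1a, noticed after its values were seen, was lowest among the water mice in the library numbered 1 in each organ and schedule. It stood at 115.4 and 357.9 CPM in liver and kidney at 1340 mg/kg/d, and at 124.7 and 313.3 CPM at 2680 mg/kg/d. The labels do not say what these libraries share.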
